A study of Mus musculus with 12 samples.

Results

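The genes described here are 10 members of the Krüppel-like factor (KLF) family of transcription factors, Klf2, Klf3, Klf4, Klf5, Klf6, Klf9, Klf10, Klf11, Klf13 and Klf15, read in cultured vascular smooth muscle cells (VSMCs) of the mouse. They were chosen by symbol, as family members linked to smooth muscle phenotype switching, and make up 10 of the 55487 genes in the deposited table. All 10 passed the filter on low values, which kept 14202 genes. Poly(A) RNA was sequenced from 12 libraries in 4 groups of 3, which were TIGAR knockout (KO) cells with PDGF-BB, untreated KO cells, wild-type (WT) cells with PDGF-BB and untreated WT cells. PDGF-BB is a growth factor for smooth muscle, given here at 40 µg/L for 6 h, and TIGAR is a fructose bisphosphatase that limits glycolysis. The cells of every group were primary cultures from mice of 4 to 6 weeks of age, grown in DMEM/F12 with serum and used at passages 4 to 6. The labels do not say how many animals or cultures gave the 3 libraries of a group, and every p-value rests on the spread between libraries within groups, pooled over the 4 groups, which may be technical. The sources used here do not give the allele or the cells in which Tigar was deleted, and in bulk RNA fewer cells of a type and less RNA per cell cannot be told apart.

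KLFs are zinc-finger proteins that bind CACCC and GC-rich boxes in promoters and differ in the cofactors held by the rest of the protein. Klf2, Klf4, Klf5 and Klf6 can recruit acetyltransferases, Klf9, Klf10, Klf11 and Klf13 bind the corepressor SIN3A, and Klf3 binds the corepressor CtBP. In smooth muscle the family is known for its part in phenotype switching, where Klf4 and Klf5 accompany the loss of the contractile state and Klf15 is known as a brake on proliferation.

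Library totals ranged from 14953807 to 21698488 reads, and values are reads scaled to a library sum of 1000000 (CPM). The targeted gene Tigar had 14.6, 14.7 and 16.2 CPM in treated KO libraries and 10.0, 12.2 and 11.3 CPM in untreated KO libraries, against 11.5, 11.5 and 12.6 CPM in treated WT libraries and 6.99, 8.61 and 6.91 CPM in untreated WT libraries. Tigar was thus not lower in the libraries labelled KO, with a log2 difference of 0.52 (SE 0.11, adjusted p = 0.00209) without and 0.33 (SE 0.11, adjusted p = 0.0292) with PDGF-BB, and the genotype is written below as labelled KO. The part of the gene that was deleted is not given in the sources used here, and reads outside it would still be counted. Of 18 smooth muscle contractile genes 17 passed the filter, but Des was at 0.356 to 0.953 CPM and Tagln averaged 6.93, 5.93, 4.30 and 3.41 CPM over treated labelled KO, untreated labelled KO, treated WT and untreated WT cells. Treated WT replicate 1 was unlike its fellow libraries. Its distance to them (root mean square over genes, log2 scale) was 0.416, and the same measure gave 0.143 to 0.293 in the remaining 11. Deviations of a library from the mean of the other two of its group, which share libraries, followed exonic length in all 3 treated WT libraries, with Spearman's rho of -0.577, 0.431 and 0.526 in replicates 1, 2 and 3 across 14202 genes, which are not independent replicates, beside -0.254 to 0.169 in the other groups.

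PDGF-BB split the family. Klf4 and Klf10 rose in both genotypes, and Klf11, Klf15 and Klf5 fell in both. In labelled KO cells 7 of the 10 members passed the test, 3 higher and 4 lower, against 42.4% of all genes tested (17.6% higher and 24.8% lower). In WT cells 7 of 10 passed, 2 higher and 5 lower, against 59.4% of all genes (25.0% higher and 34.4% lower), so the count of calls lay close to the share of all genes there. Changes past the test and at least 2-fold on the log2(CPM + 1) scale were seen for 3 members in labelled KO cells, where 4.13% of all genes reached that size, and for 4 members in WT cells, where 9.94% did. The test is limma-trend on log2(CPM + 1) in a single fit of all libraries, with Benjamini-Hochberg adjustment over 14202 genes and a threshold of 0.05. The median absolute log2 change of the members was 0.48 in labelled KO and 0.54 in WT cells, beside 0.26 and 0.38 over all genes. The split of calls moved with the scaling, to 3 higher and 2 lower in labelled KO cells with quantile normalization, and to 3 higher and 4 lower in WT cells with TMM scaling, edgeR or DESeq2. Without the treated WT replicate that stood apart, 7 members passed in labelled KO cells and 8 in WT cells.

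Between genotypes, labelled KO cells carried less Klf4, Klf3 and Klf15 under both conditions, and less Klf11, Klf5 and Klf6 when untreated, though the difference of Klf5 was not called by edgeR, DESeq2 or after quantile normalization. Without PDGF-BB, 8 of 10 members passed the test, 2 higher and 6 lower in labelled KO, against 34.0% of all genes (9.15% higher and 24.8% lower). With PDGF-BB, 5 passed, 2 higher and 3 lower, against 37.2% of all genes (10.6% higher and 26.6% lower). At least 2-fold changes were called for 2 members without PDGF-BB (5.26% of all genes) and for 1 member with it (4.72%). The response itself differed between genotypes for 2 members, Klf6 and Klf11, both with a positive interaction, where 3.92% of all genes were called (2.25% positive). No member had a called negative interaction (1.68% of all genes) by limma-trend, at an unadjusted p under 0.05, or by edgeR or DESeq2. These comparisons share groups with each other and with the responses, so their values are set side by side and no correlation between them is given.

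Scaling shifted the responses and the genotype comparisons. The median log2 response over all genes was -0.067 in labelled KO and -0.082 in WT under the deposited scaling, and -0.019 and -0.013 after TMM scaling. Higher calls were 41.5% of all calls for the response in labelled KO and 42.1% in WT, and 48.3% to 49.3% and 49.7% to 51.2% under TMM, quantile normalization, edgeR and DESeq2. Between genotypes the median log2 difference over all genes was -0.13 without and -0.14 with PDGF-BB under the deposited scaling to the library sum, and -0.0071 and -0.050 after TMM scaling. Each genotype difference called for a member is therefore also given below relative to the median of all genes. Higher calls were 27.0% of all calls without and 28.5% with PDGF-BB, and 46.4% to 52.4% and 45.8% to 50.6% under TMM, quantile normalization, edgeR and DESeq2. For the members this moved the split to 3 higher and 5 lower without PDGF-BB (quantile normalization, edgeR and DESeq2) and to 5 higher and 3 lower with it (all 4 settings). For the interaction the positive share over all genes moved to 45.3%, 46.0% and 46.7% under DESeq2, edgeR and TMM scaling, beside 57.3%, while both called members remained positive. Without replicate 1 of treated WT, 9 members passed without PDGF-BB, 6 with it and 3 for the interaction. The count without PDGF-BB was 5 when untreated WT replicate 2 was left out, and the count with PDGF-BB was 3 without replicate 1 or 2 of treated labelled KO.

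**Figure D1:**
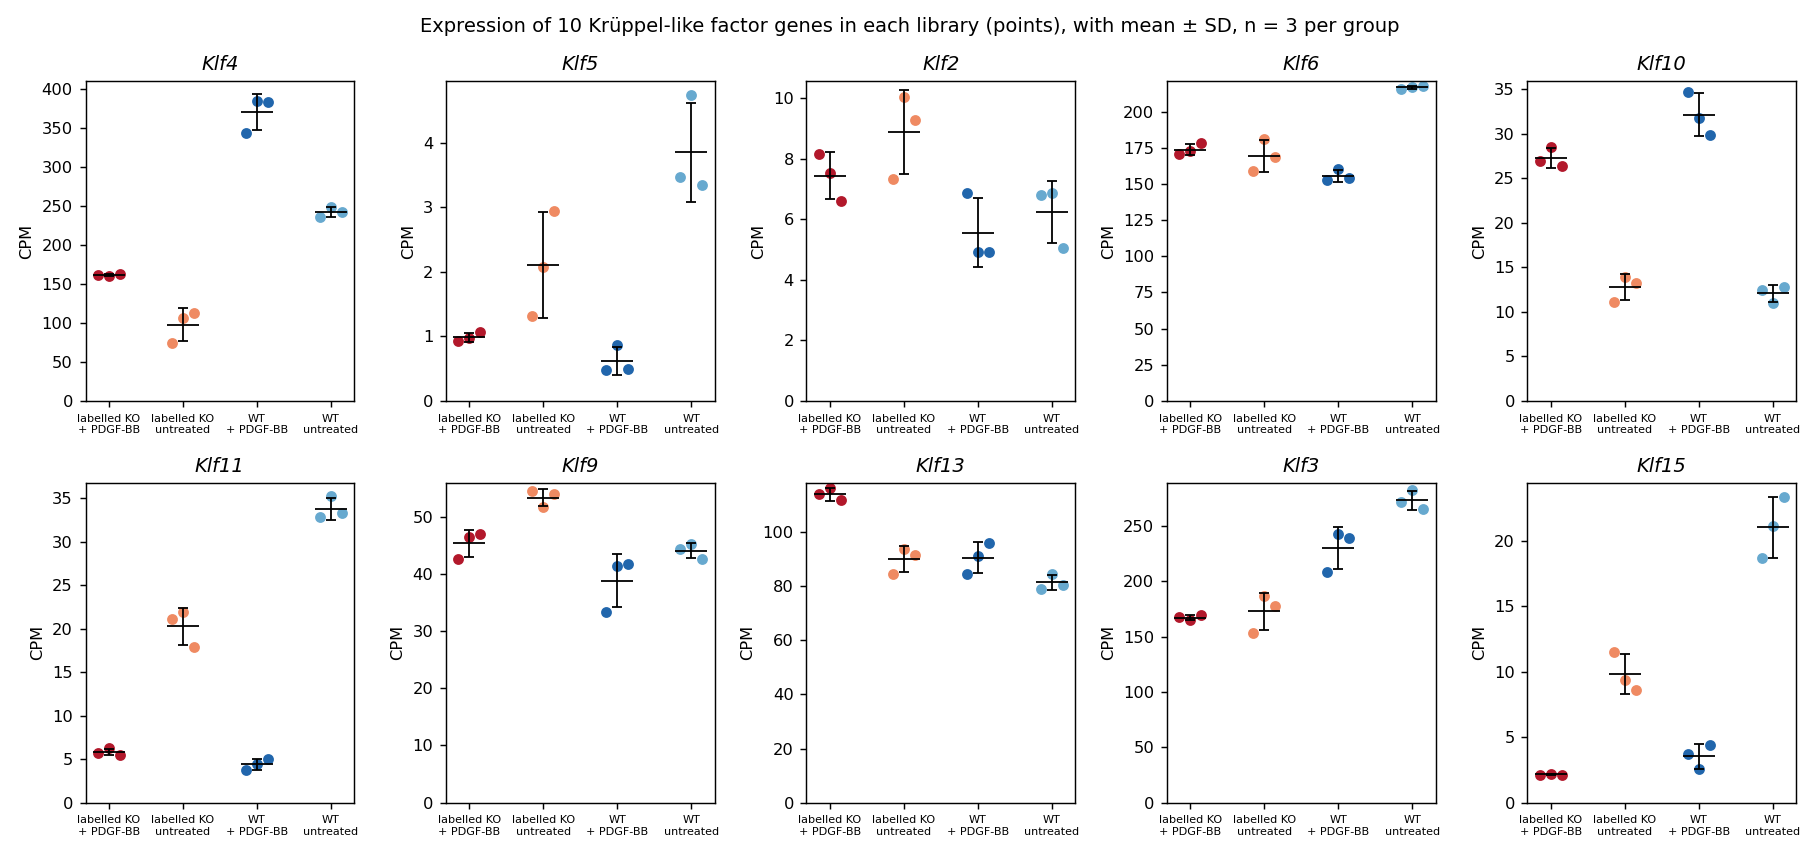
Expression (CPM, linear axis from 0) of each of the 10 KLF genes in all 12 libraries, with 1 panel per gene, points for libraries and bars for the group mean ± SD (n = 3). Klf4 sits at 161 to 163 CPM in treated labelled KO libraries and 343 to 385 CPM in treated WT libraries, and Klf11 and Klf15 are low in every treated library of both genotypes.

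Promoters of the family were alike in base composition. RefSeq windows (GRCm38.p6, 250 bases before to 50 after the annotated start) were matched by symbol for 8 of the 10 members, all but Klf5 and Klf10. The 32851 windows called all promoters leave out a chromosome that holds none of the members. Their GC content ran from 63.0% in Klf6 to 77.7% in Klf11, beside a median of 52.7% over 32851 promoters, and they held 23 to 47 CpG dinucleotides beside a median of 7. Motifs were counted on both strands, and their positions count from the annotated start, negative before it and with no base 0. The GC box GGGCGG, which SP and KLF proteins bind, lay in 7 of 8 members (35.7% of all promoters, 80.6% of the 9690 promoters with at least 60% GC), and the CACCC box, spelled CACCC, in 5 of 8 (57.5% and 70.1%). The E-box CACGTG lay in 4 of 8, namely Klf4, Klf6, Klf11 and Klf15 (7.15% and 10.8%). The EGR site GCGGGGGCG lay in Klf2, Klf3, Klf4 and Klf15 (2.91% and 8.77%), and in all 4 of these promoters an EGR site shared bases with a GC box. The cyclic AMP element core TGACG lay in 6 of 8 (20.8% and 31.6%). No member window held the full element TGACGTCA (1.79% of all promoters and 3.03% of GC-rich ones) or the TATA box TATAAA (13.6% and 3.21%). The CArG box (1.63% and 1.07%) and the glucocorticoid response element (0.00913% and 0%) were also absent. These matches describe letters in a window and say nothing of binding in these cells.

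Klf4, the member that represses contractile genes through SRF and myocardin, showed the largest absolute difference between genotypes of the 10. The gene lies at chr4:55527143-55532466 on the minus strand. Its window, chr4:55532426-55532725 (minus strand), is shown because Klf4 changed with PDGF-BB and differed between the labelled genotypes, and its E-box and EGR site stand 3 bases apart. Capitals mark the EGR site, read on the opposite strand at -194 to -186, and then the E-box at -182 to -177.
Klf4: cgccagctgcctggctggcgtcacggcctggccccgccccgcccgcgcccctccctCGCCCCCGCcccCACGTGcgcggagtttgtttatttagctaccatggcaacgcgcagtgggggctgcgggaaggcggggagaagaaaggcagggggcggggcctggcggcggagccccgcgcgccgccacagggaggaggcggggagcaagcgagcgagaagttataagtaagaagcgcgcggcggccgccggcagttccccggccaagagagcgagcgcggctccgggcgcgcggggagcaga
Klf4 had 162, 161 and 163 CPM in treated labelled KO libraries and 73.9, 106 and 113 CPM in untreated labelled KO libraries, against 343, 385 and 384 CPM in treated WT libraries and 235, 248 and 242 CPM in untreated WT libraries. No library of one group overlapped with another group, every labelled KO library lay below every WT library whether treated or not, and untreated labelled KO replicate 1 was the lowest of all. PDGF-BB raised Klf4 by 0.75 on the log2 scale in labelled KO (SE 0.12, adjusted p = 0.000267) and by 0.61 in WT (SE 0.12, adjusted p = 0.000673). Labelled KO lay below WT by a log2 difference of -1.32 without PDGF-BB (SE 0.12, adjusted p = 2.3e-06, -1.19 relative to all genes) and -1.19 with it (SE 0.12, adjusted p = 5.87e-06, -1.04 relative to all genes). The 2 responses differed by 0.13 (95% interval -0.23 to 0.50, adjusted p = 0.701). All 4 pairwise calls held under every alternative run.

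Klf5, which activates growth and matrix genes in injured vessels, was the lowest of the 10 members per length in every group. It lies at chr14:99298691-99315036. Klf5 had 0.922, 0.973 and 1.06 CPM in treated labelled KO libraries and 1.31, 2.07 and 2.95 CPM in untreated labelled KO libraries, against 0.486, 0.864 and 0.490 CPM in treated WT libraries and 3.47, 4.74 and 3.34 CPM in untreated WT libraries. The 12 values rest on 8 to 93 reads each. Treated libraries lay below untreated ones in both genotypes without overlap, and treated labelled KO libraries were the higher of the treated groups. Klf5 fell by 0.61 on the log2 scale in labelled KO (SE 0.19, adjusted p = 0.0171) and fell by 1.58 in WT (SE 0.19, adjusted p = 9.67e-06). It was lower in untreated labelled KO than in untreated WT, at -0.66 (SE 0.19, adjusted p = 0.0142, -0.53 relative to all genes), and with PDGF-BB the difference was 0.31 (95% interval -0.09 to 0.71, adjusted p = 0.208). The interaction was 0.97 (SE 0.26) and missed the threshold (adjusted p = 0.0583), but passed it with DESeq2 (0.0495), without untreated labelled KO replicate 3 (0.0275) and without treated WT replicate 1 (0.0372). The fall in labelled KO lost its call without treated replicate 1 (adjusted p = 0.0533) or untreated replicate 3 (0.0841), with quantile normalization (0.0874) and with no filter (0.0613). The untreated genotype difference was not called by edgeR (adjusted p = 0.0633) or DESeq2 (0.0758), with quantile normalization (0.0649), or without labelled KO replicate 1 (0.0578) or WT replicate 2 (0.0709).

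Klf2, best known as a flow-responsive gene of endothelium under MEF2 and ERK5, did not pass the test for PDGF-BB. It lies at chr8:72319033-72321656 on the plus strand. Its window, chr8:72318812-72319111 (plus strand), is shown because it is the only one of the 8 with a MEF2 site, which 0.557% of all promoters and 0.268% of GC-rich ones held. Capitals mark an EGR site at -199 to -191 and then the MEF2 site at -118 to -109.
Klf2: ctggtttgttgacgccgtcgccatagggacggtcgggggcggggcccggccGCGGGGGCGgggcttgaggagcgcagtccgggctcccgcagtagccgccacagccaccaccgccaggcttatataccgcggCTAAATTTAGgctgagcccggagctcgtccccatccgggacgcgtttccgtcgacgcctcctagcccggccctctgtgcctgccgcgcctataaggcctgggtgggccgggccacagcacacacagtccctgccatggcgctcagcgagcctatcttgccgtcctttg
Klf2 had 8.16, 7.54 and 6.62 CPM in treated labelled KO libraries and 7.33, 10.0 and 9.29 CPM in untreated labelled KO libraries, against 6.86, 4.92 and 4.90 CPM in treated WT libraries and 6.81, 6.87 and 5.06 CPM in untreated WT libraries. Labelled KO libraries were on the high side in both conditions, and the genotypes overlapped with PDGF-BB but not without it. The log2 response was -0.22 in labelled KO (95% interval -0.56 to 0.11, adjusted p = 0.27) and -0.15 in WT (95% interval -0.48 to 0.19, adjusted p = 0.431). Untreated labelled KO was higher than untreated WT by 0.45 (SE 0.16, adjusted p = 0.0399, 0.58 relative to all genes), and with PDGF-BB the difference of 0.37 missed the threshold (adjusted p = 0.0749). The untreated call was lost without any single untreated WT library, without untreated labelled KO replicate 2 or 3, and without treated labelled KO replicate 1 or 2 (adjusted p = 0.0504 to 0.170 over these 7), and with no filter (0.0890). With PDGF-BB the difference passed under TMM, quantile normalization, edgeR and DESeq2 and without treated WT replicate 1 (adjusted p = 0.00993 to 0.0382 over these 5).

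Klf6, an injury-induced member, fell with PDGF-BB in WT cells and had no called response in labelled KO cells. It lies at chr13:5861482-5870394, and its window holds an E-box at -43 to -38. Klf6 had 170, 172 and 178 CPM in treated labelled KO libraries and 159, 181 and 169 CPM in untreated labelled KO libraries, against 152, 160 and 154 CPM in treated WT libraries and 216, 217 and 218 CPM in untreated WT libraries. Untreated WT libraries stood above all 9 others, and the labelled KO groups overlapped each other. The log2 response was 0.04 in labelled KO (95% interval -0.09 to 0.17, adjusted p = 0.652) and -0.48 in WT (SE 0.060, adjusted p = 1.88e-05). The test of the difference gave an interaction of 0.51 (SE 0.085, adjusted p = 0.00485), which held under all 21 alternatives run for it. Untreated labelled KO lay below untreated WT at -0.36 (SE 0.060, adjusted p = 0.000491, -0.23 relative to all genes), and with PDGF-BB the difference was 0.16 (adjusted p = 0.0556, 0.30 relative to all genes). That difference passed under TMM, quantile normalization, edgeR and DESeq2, with a filter at a mean CPM of 5, and without untreated labelled KO replicate 1 or treated WT replicate 1 (adjusted p = 0.000156 to 0.0479 over these 7).

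Klf10, named as a TGF-beta-inducible early gene and a partner of SIN3A, showed the largest rise with PDGF-BB of the 10. It lies at chr15:38291463-38300706. Klf10 had 26.9, 28.5 and 26.4 CPM in treated labelled KO libraries and 11.1, 13.9 and 13.3 CPM in untreated labelled KO libraries, against 34.7, 31.8 and 29.9 CPM in treated WT libraries and 12.5, 11 and 12.7 CPM in untreated WT libraries. Every treated library lay above every untreated one, treated labelled KO lay below treated WT, and the untreated groups overlapped. Klf10 rose by 1.04 on the log2 scale in labelled KO (SE 0.099, adjusted p = 3.31e-06) and by 1.34 in WT (SE 0.099, adjusted p = 1.43e-07), which are 2.14-fold and 2.66-fold ratios of mean CPM. No genotype difference was called, at 0.07 without PDGF-BB (adjusted p = 0.613, 0.20 relative to all genes) and -0.23 with it (adjusted p = 0.0863, -0.083 relative to all genes). The responses differed by -0.30 (95% interval -0.60 to 0.0021, adjusted p = 0.265).

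Klf11, the other TGF-beta-inducible member, gave the largest response of the 10 in WT cells and the larger of the 2 called interactions. It lies at chr12:24651274-24662789 on the plus strand. Its window, chr12:24651121-24651420 (plus strand), is shown beside that of Klf15 because these are the 2 members with falls of at least 2-fold on the log2(CPM + 1) scale in both genotypes, and both hold an E-box. In the Klf11 window capitals mark the E-box at -214 to -209. In the Klf15 window, chr6:90462326-90462625 (plus strand), capitals mark E-boxes at -228 to -223 and -172 to -167, an EGR site at -89 to -81 and an E-box across the start at -3 to 3.
Klf11: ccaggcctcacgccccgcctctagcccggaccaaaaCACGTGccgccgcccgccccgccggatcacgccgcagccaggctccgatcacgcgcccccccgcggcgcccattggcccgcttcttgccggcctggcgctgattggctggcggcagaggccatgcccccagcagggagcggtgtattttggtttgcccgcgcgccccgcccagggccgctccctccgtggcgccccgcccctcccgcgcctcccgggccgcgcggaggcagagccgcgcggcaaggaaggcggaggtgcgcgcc
Klf15: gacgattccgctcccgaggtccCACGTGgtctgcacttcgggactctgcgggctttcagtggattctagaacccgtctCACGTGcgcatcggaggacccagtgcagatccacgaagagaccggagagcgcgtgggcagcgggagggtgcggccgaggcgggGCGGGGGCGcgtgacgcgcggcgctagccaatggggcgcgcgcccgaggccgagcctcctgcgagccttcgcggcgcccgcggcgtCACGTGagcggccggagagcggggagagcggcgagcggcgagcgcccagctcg
Klf11 had 5.71, 6.23 and 5.50 CPM in treated labelled KO libraries and 21.1, 21.9 and 17.9 CPM in untreated labelled KO libraries, against 3.77, 4.39 and 5.03 CPM in treated WT libraries and 32.8, 35.2 and 33.3 CPM in untreated WT libraries. The 4 groups did not overlap, and labelled KO was the lower genotype without PDGF-BB and the higher one with it. Klf11 fell by 1.64 on the log2 scale in labelled KO (SE 0.11, adjusted p = 1.62e-07) and fell by 2.69 in WT (SE 0.11, adjusted p = 1.15e-09). In mean CPM this is a 3.49-fold drop in labelled KO and a 7.68-fold drop in WT. The interaction was 1.06 (SE 0.15, adjusted p = 0.00233) and held under all 21 alternatives run for it, with values of 0.82 to 1.14. The genotype difference was -0.71 without PDGF-BB (SE 0.11, adjusted p = 0.00023, -0.59 relative to all genes) and 0.34 with it (SE 0.11, adjusted p = 0.026, 0.49 relative to all genes). Under PDGF-BB this call was lost without replicate 1 or 2 of treated labelled KO or replicate 1 or 2 of treated WT (adjusted p = 0.0506 to 0.0941 over these 4), with a pseudocount of 5 (0.0606), with no filter (0.0504) and with the compared groups alone (0.0879).

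Klf15, known as a brake on smooth muscle proliferation and as a regulator of amino acid breakdown in muscle and liver, fell with PDGF-BB in both genotypes and was lower in labelled KO. It lies at chr6:90462576-90475238. Klf15 had 2.12, 2.19 and 2.12 CPM in treated labelled KO libraries and 11.5, 9.36 and 8.56 CPM in untreated labelled KO libraries, against 3.70, 2.53 and 4.41 CPM in treated WT libraries and 18.7, 21.1 and 23.3 CPM in untreated WT libraries. The 4 groups did not overlap, with labelled KO below WT in both conditions. It fell by 1.77 on the log2 scale in labelled KO (SE 0.15, adjusted p = 1.6e-06) and fell by 2.29 in WT (SE 0.15, adjusted p = 6.45e-08), or 4.58-fold and 5.93-fold in mean CPM. The difference between these responses was 0.52 (95% interval 0.05 to 0.99) and was not called (adjusted p = 0.216), except with a pseudocount of 5 (adjusted p = 0.0357). Labelled KO was lower by -1.03 without PDGF-BB (SE 0.15, adjusted p = 0.0002, -0.90 relative to all genes) and by -0.51 with it (SE 0.15, adjusted p = 0.0205, -0.37 relative to all genes). The call with PDGF-BB was lost without any single treated labelled KO library or without treated WT replicate 3 (adjusted p = 0.0501 to 0.0663 over these 4), with a pseudocount of 5 (0.0592), with no filter (0.0553) and with the compared groups alone (0.0634).

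Klf9, a glucocorticoid- and thyroid hormone-induced member that binds SIN3A, changed little. It lies at chr19:23141226-23168134. Its window was the only one of the 8 with the AP-1 site TGANTCA, at -89 to -83, and the FoxO site GTAAACA, at -100 to -94. These sites lay in 7.81% and 3.65% of all promoters, and in 3.35% and 1.49% of GC-rich ones. The AP-1 site shares bases with a CACCC box. Klf9 had 42.7, 46.5 and 47.0 CPM in treated labelled KO libraries and 54.6, 51.7 and 54.0 CPM in untreated labelled KO libraries, against 33.5, 41.4 and 41.8 CPM in treated WT libraries and 44.5, 45.2 and 42.7 CPM in untreated WT libraries. Treated libraries lay below untreated ones within each genotype, and labelled KO above WT within each treatment, by small margins. The log2 response was -0.23 in labelled KO (SE 0.085, adjusted p = 0.0423) and -0.18 in WT (SE 0.085, adjusted p = 0.0769). The call in labelled KO was lost in 15 of 22 alternatives, including every one that left out a labelled KO or an untreated WT library (adjusted p = 0.0555 to 0.156 over these 9), TMM scaling (0.123), edgeR (0.113), DESeq2 (0.115) and the replicate block (0.0792). The response in WT passed without treated WT replicate 3 (adjusted p = 0.0355). Untreated labelled KO was higher by 0.27 (SE 0.085, adjusted p = 0.0258, 0.40 relative to all genes), a call lost without labelled KO replicate 1 or 3 or any single untreated WT library (adjusted p = 0.0516 to 0.0895 over these 5). With PDGF-BB the difference of 0.22 missed the threshold (adjusted p = 0.0543) and passed under TMM, quantile normalization, edgeR, DESeq2, the filter at a mean CPM of 5, and without treated WT replicate 2 or 3 (adjusted p = 0.00278 to 0.049 over these 7).

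Klf13, a SIN3A-binding member known for chemokine control in T cells, rose with PDGF-BB in labelled KO cells. It lies at chr7:63886351-63938915. Klf13 had 114, 116 and 112 CPM in treated labelled KO libraries and 84.7, 94.0 and 91.5 CPM in untreated labelled KO libraries, against 84.6, 91.1 and 96.2 CPM in treated WT libraries and 79.1, 84.5 and 80.7 CPM in untreated WT libraries. Treated labelled KO libraries stood above all 9 others, which lay close together. The log2 response was 0.34 in labelled KO (SE 0.066, adjusted p = 0.00114) and 0.15 in WT (SE 0.066, adjusted p = 0.0648), and the test of the difference gave 0.19 (95% interval -0.014 to 0.39, adjusted p = 0.298). Labelled KO was higher with PDGF-BB by 0.33 (SE 0.066, adjusted p = 0.00189, 0.47 relative to all genes), and without it the difference was 0.14 (adjusted p = 0.116). The WT response passed under TMM, edgeR and DESeq2 and without treated WT replicate 1 (adjusted p = 0.00389 to 0.0138 over these 4), and the untreated difference under those settings and quantile normalization (adjusted p = 0.00165 to 0.031 over these 5).

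Klf3, the CtBP-binding member, was lower in labelled KO under both conditions. It lies at chr5:64803388-64832901, where 404 of its exonic bases overlap Gm20033 on the opposite strand, a gene with a mean of 1.37 CPM. These are 3.59% of its exonic bases in the annotation used for the overlap, a longer model than the 5221 exonic bases of the deposited table. The strand setting of the counting is not given in the sources used here. Klf3 had 168, 165 and 170 CPM in treated labelled KO libraries and 154, 187 and 178 CPM in untreated labelled KO libraries, against 208, 243 and 240 CPM in treated WT libraries and 272, 283 and 266 CPM in untreated WT libraries. All 6 labelled KO libraries lay below all 6 WT libraries, and the labelled KO groups overlapped each other. The genotype difference was -0.66 without PDGF-BB (SE 0.080, adjusted p = 3.02e-05, -0.54 relative to all genes) and -0.45 with it (SE 0.080, adjusted p = 0.000707, -0.31 relative to all genes), and both calls held under every alternative run. Klf3 fell by 0.25 in WT with PDGF-BB (SE 0.080, adjusted p = 0.0158), and the response in labelled KO was -0.04 (95% interval -0.21 to 0.13, adjusted p = 0.71). The interaction was 0.21 (adjusted p = 0.333). The fall in WT was not called under TMM (adjusted p = 0.107), edgeR (0.119) or DESeq2 (0.0859) or without untreated WT replicate 2 (0.0574).

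**Figure D2:**
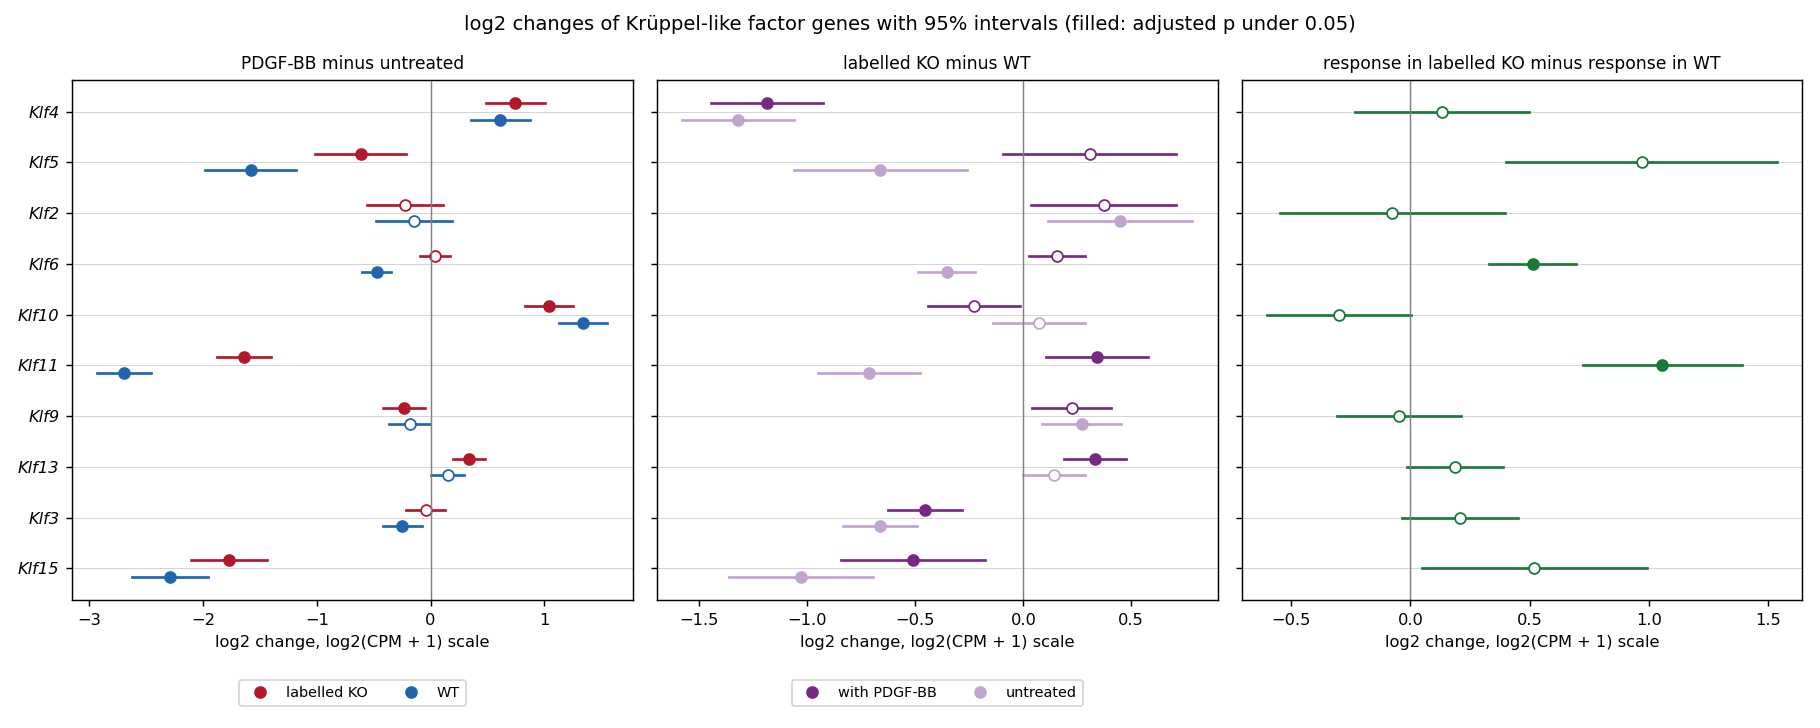
Log2 changes on the log2(CPM + 1) scale (points) with 95% intervals (lines) for the 10 KLF genes, with the PDGF-BB response by genotype at the left, the genotype difference by treatment in the middle and the difference of the 2 responses at the right. Filled points passed the adjusted p threshold of 0.05. At the right only Klf6 (0.51) and Klf11 (1.06) are filled.

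Libraries did not overlap between treated and untreated groups for 7 members in labelled KO (63.2% of all genes) and for 9 in WT (62.3%). They did not overlap between the genotypes for 9 members without PDGF-BB (54.7% of all genes) and for 9 with it (49.5%).

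Levels between members were compared per length, as CPM per kb of the exonic length given in the table. For Klf3 that length is 5221 bases, and the annotation used for its overlap with Gm20033 has a longer exonic model. The ranks and overlaps of Klf3 per length rest on the shorter model and were not computed with the longer one. Klf4 led in treated labelled KO (53.5 ± 0.462 CPM per kb, SD, n = 3), treated WT (122 ± 7.79) and untreated WT (79.8 ± 2.14). In untreated labelled KO the order was Klf6 (40.1 ± 2.61), Klf3 (33.1 ± 3.28) and Klf4 (32.3 ± 6.92), and the ranges of Klf3 and Klf4 overlapped. Klf4, Klf3 and Klf6 were the 3 highest in every group, followed by Klf13 in all but treated WT, where Klf10 (15 ± 1.13) and Klf13 (14.2 ± 0.908) overlapped. Klf5 came last in every group, at 0.294 ± 0.0212 CPM per kb in treated labelled KO, 0.629 ± 0.245 in untreated labelled KO, 0.183 ± 0.0647 in treated WT and 1.15 ± 0.231 in untreated WT.

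The treatment reordered the middle of the family. Klf15 and Klf11 stood at 8.86 ± 0.979 and 8.26 ± 0.31 CPM per kb in untreated WT, overlapping each other and, for Klf15, Klf9 (9.84 ± 0.287), above Klf10 (5.63 ± 0.44). In treated WT Klf15 (1.5 ± 0.402) and Klf11 (1.08 ± 0.154) overlapped below Klf2 (3.01 ± 0.61). In untreated labelled KO Klf10 (5.96 ± 0.682), Klf11 (4.96 ± 0.52), Klf2 (4.81 ± 0.756) and Klf15 (4.14 ± 0.644) each overlapped the next, and in treated labelled KO no neighbours overlapped. Klf3 and Klf6 overlapped in untreated WT (52.4 ± 1.67 and 51.3 ± 0.239). Summed over the 10 members, expression was 701 to 711 CPM in treated labelled KO, 578 to 676 CPM in untreated labelled KO, 872 to 965 CPM in treated WT and 921 to 957 CPM in untreated WT.

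**Figure D3:**
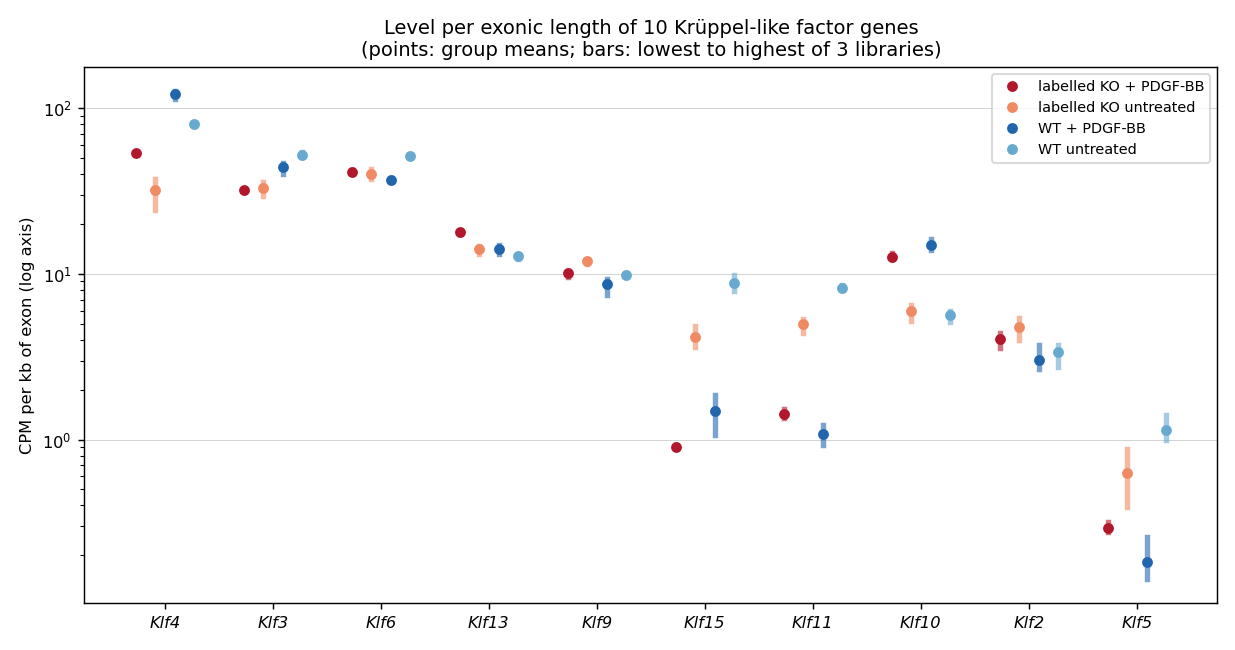
Level of each KLF gene in CPM per kb of exon (log axis), with points for the group means of 3 libraries and bars from the lowest to the highest library, and genes ordered by the untreated WT mean. Klf4 reaches 122 CPM per kb in treated WT, Klf5 stays at or under 1.15 in every group mean, and Klf11 and Klf15 lie below Klf2 in both treated groups. In untreated labelled KO the mean of Klf15 (4.14) is already below that of Klf2 (4.81), with overlapping ranges.

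The genes whose pattern over the 12 libraries was most like each member were found by the root mean square (rms) difference of log2(CPM + 1), each gene centred on its own mean. The 12610 genes compared were those whose symbols were not of the Gm, Rik, LOC, AC or AL type. Nearest to Klf11 were Hs6st1 (0.159), Coq8a (0.187) and Irs2 (0.210), and nearest to Klf15 were Foxp2 (0.230), Cbx7 (0.245) and Epb41l5 (0.276). Nearest to Klf10 were Lmna (0.0882), Rps6ka4 (0.0970) and Srxn1 (0.0982), and nearest to Klf4 were Rian, Slc6a17 (both 0.184) and Jade1 (0.190). Cacna1a, Sbk3 and Ifit2 were nearest to Klf5 (0.147 to 0.182), and Aplp1, Tpm1 and Cd59a to Klf2 (0.132 to 0.142). For Klf6, Klf9, Klf13 and Klf3 the distances were 0.0609 to 0.0913, with Scrn1, Rab8b and Nacc2 nearest to Klf6, BC034090, Adamts2 and Dip2c to Klf9, Dcaf10, Pank3 and Pcyt1a to Klf13, and Sorbs3, Retreg1 and Capn5 to Klf3. Between members the smallest distances were those of Klf6 with Klf9 and of Klf2 with Klf9 (both 0.239). The own spreads about the mean were 0.181 for Klf6, 0.181 for Klf9 and 0.280 for Klf2. Klf6 and Klf9 thus lay farther from each other than a flat line lay from each, and the small distance reflects little change. Klf11 and Klf15 lay 0.364 apart while their own spreads about the mean were 1.12 and 1.11.

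Of 16 other listed genes of the KLF and SP families, 9 passed the filter, and Klf14, Klf17 and Sp8 were at 0 in all libraries. With PDGF-BB 1 rose and 3 fell of 9 in labelled KO (17.6% and 24.8% of all genes), and 1 rose and 3 fell of 9 in WT (25.0% and 34.4%). Klf16, a SIN3A-binding member, rose (log2 change 0.42 in labelled KO and 0.64 in WT), while Sp4 (-0.86 and -1.20), Klf8 (-0.60 and -0.46) and Klf7 (-0.40 and -1.01) fell in both genotypes. Between genotypes 3 were higher in labelled KO without PDGF-BB (9.15% of all genes), and 4 were higher and 1 lower with it (10.6% and 26.6%). Klf7 averaged 37.1 ± 0.788 CPM in treated and 49.1 ± 0.48 CPM in untreated labelled KO cells, against 19.1 ± 3.45 CPM in treated and 39.2 ± 2.28 CPM in untreated WT cells (SD, n = 3 each). It was the 1 gene of this list with a called interaction, at 0.62 (SE 0.15, adjusted p = 0.037), by limma-trend, edgeR and DESeq2 but not with TMM scaling. Sp5 averaged 3.09 and 2.74 CPM in treated and untreated labelled KO cells, against 0.451 and 0.232 CPM in treated and untreated WT cells.

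Klf4 represses contractile genes through SRF and myocardin, so both groups were read beside it. Of 7 SRF, myocardin-family and ternary complex factor genes, 3 rose with PDGF-BB in labelled KO, and 3 rose and 3 fell in WT. Over all genes 17.6% rose and 24.8% fell in labelled KO, and 25.0% rose and 34.4% fell in WT. None of the 7 was called lower with PDGF-BB in labelled KO by limma-trend, edgeR or DESeq2, and 2 were lower there at an unadjusted p under 0.05. Srf (log2 change 0.42 in labelled KO and 0.58 in WT), Elk3 (0.45 and 0.88) and Elk4 (0.28 and 0.24) rose in both, and Mrtfb (-0.83), Myocd (-0.95) and Mrtfa (-0.58) fell in WT. In labelled KO the uncalled changes of Mrtfb, Myocd and Mrtfa were -0.34, -0.47 and -0.15. Limma-trend called no interaction for them (adjusted p = 0.211, 0.391 and 0.131). Of 17 contractile genes 2 rose and 5 fell in labelled KO and 1 rose and 7 fell in WT (4 and 3, and 2 and 6, under TMM scaling), with medians of 0.0087 and -0.27, beside -0.067 and -0.082 over all genes. Myh11, smooth muscle myosin heavy chain, fell by 0.54 in labelled KO and fell by 0.99 in WT, and Cnn1, calponin, rose by 0.57 in labelled KO. The change of Cnn1 in WT was 0.42 and missed the threshold (adjusted p = 0.0560), with no called interaction (0.15, adjusted p = 0.782).

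Between genotypes, contractile genes stood opposite to Klf4. Of 17, 8 were higher in labelled KO without PDGF-BB (9 by edgeR and 11 by DESeq2) and 14 with it (15 by both), with medians of 0.36 and 0.61 beside -0.13 and -0.14 over all genes. The shares of all genes called higher were 9.15% without and 10.6% with PDGF-BB. Acta2, smooth muscle actin, averaged 2578 ± 40.9 CPM in treated labelled KO and 2460 ± 577 CPM in untreated labelled KO cells, against 1298 ± 237 CPM in treated WT and 1582 ± 233 CPM in untreated WT cells (SD, n = 3 each). The largest differences with PDGF-BB were in Cnn1 (1.27), Mylk, the myosin light chain kinase (1.04), Lmod1 (1.03) and Acta2 (1.00). Lmod1 and Cald1 had a called interaction (0.67 and 0.62). Mrtfb was higher in labelled KO in both conditions (0.64 without and 1.13 with PDGF-BB), and Myocd with PDGF-BB (0.85), at mean levels of 0.526 to 2.79 CPM over the 4 groups. None of the 17 was called lower by limma-trend, edgeR or DESeq2, and 1 was lower at an unadjusted p under 0.05 without PDGF-BB and 0 with it. Whether Klf4 had a part in these differences was not tested.

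Markers of other cell types moved with the genotype label beside every genotype difference above. Of 10 endothelial markers that passed the filter, all 10 were higher in labelled KO without (9.15% of all genes) and with PDGF-BB (10.6%), with median log2 differences of 2.62 and 2.63. Their sum over 11 listed genes was 663 to 683 CPM in treated and 701 to 799 CPM in untreated labelled KO libraries, against 90.7 to 93.6 CPM in treated and 108 to 113 CPM in untreated WT libraries. Macrophage markers were lower in labelled KO for 11 of 11 without (24.8% of all genes) and 10 of 11 with PDGF-BB (26.6%). They summed to 37.0 to 41.0 CPM and 37.7 to 47.6 CPM in treated and untreated labelled KO, against 120 to 174 CPM and 159 to 172 CPM in treated and untreated WT.

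Of 9 fibroblast markers, 4 were higher and 2 lower in labelled KO without PDGF-BB (9.15% and 24.8% of all genes), and 4 were higher and 3 lower with it (10.6% and 26.6%). Their median log2 differences were -0.13 without and 0.034 with PDGF-BB, beside -0.13 and -0.14 over all genes. Their sum, which the most abundant genes weigh on most, was 12993 to 13460 CPM in treated and 11251 to 11498 CPM in untreated labelled KO. In WT it was 6570 to 6997 CPM in treated and 5886 to 5987 CPM in untreated cells. Col1a1 alone was higher in labelled KO by 1.45 and 1.35. Of 8 epithelial markers 7 stayed under the filter, Esrp1 was at 0 in all libraries, and Krt18 was higher in labelled KO (2.18 and 2.11). Of the defining endothelial markers Cldn5 stayed under the filter (0.245 to 1.12 CPM), of the macrophage markers Itgam, and of the fibroblast markers Lum. Klf2 and Klf4 are also endothelial genes and Klf4 is expressed in macrophages, and the part of these markers in the genotype differences of the members was not tested. With PDGF-BB 1 of 10 endothelial markers was lower in labelled KO (24.8% of all genes), and 5 of 10 were lower in WT (34.4% of all genes), a count of 3 under TMM scaling and DESeq2 and of 2 by edgeR.

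**Figure D4:**
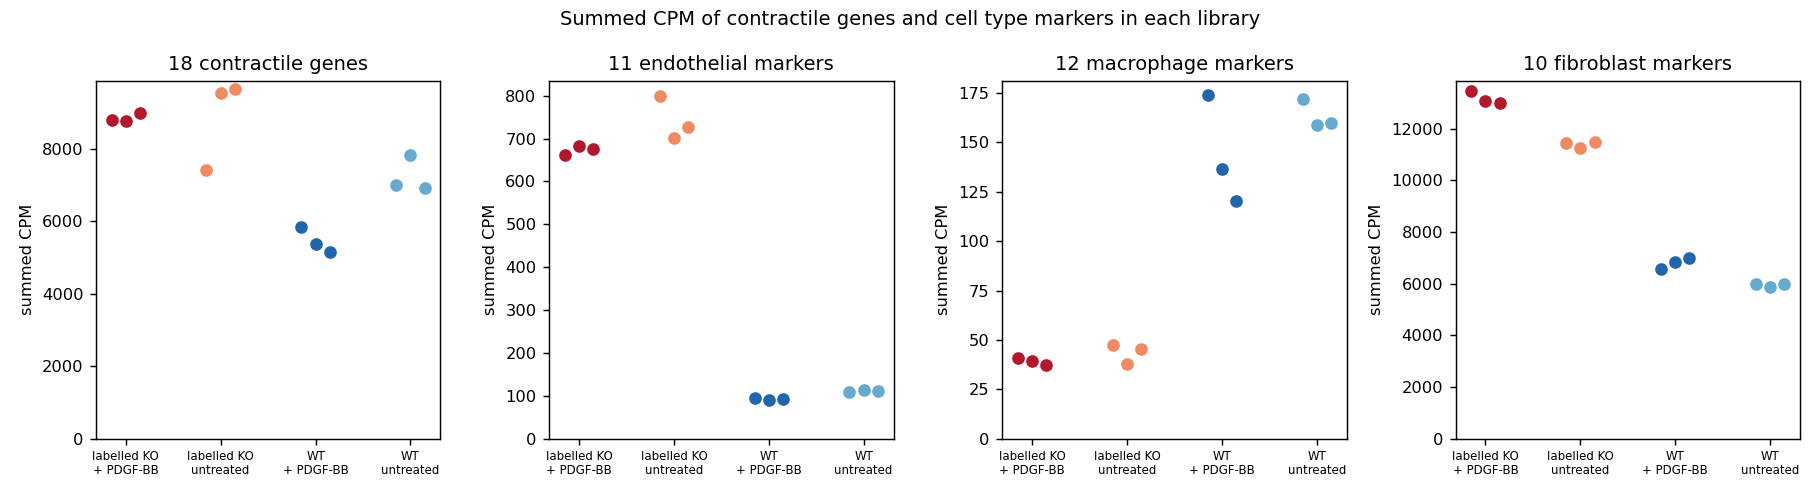
Summed CPM (linear axis from 0) of 18 contractile genes and of endothelial, macrophage and fibroblast marker lists in each of the 12 libraries, 1 point per library. Endothelial sums are 663 to 799 CPM in labelled KO libraries and 90.7 to 113 CPM in WT libraries, and macrophage sums are lower in labelled KO, at 37.0 to 47.6 CPM against 120 to 174 CPM in WT.

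Cofactors that KLF proteins bind and ligases that mark them for breakdown were read as a further list. Of 16 cofactor and ubiquitin ligase genes, 2 rose and 3 fell with PDGF-BB in labelled KO (17.6% and 24.8% of all genes). In WT 4 rose and 3 fell (25.0% and 34.4% of all genes). With PDGF-BB 5 of the 16 were lower in labelled KO than in WT, beside 26.6% of all genes. That last count turned with the scaling, to 2 higher and 1 lower under TMM and edgeR and to 3 higher under DESeq2. Between untreated genotypes limma-trend called 0 of 16, with 2 at an unadjusted p under 0.05 and 1 called by edgeR and by DESeq2. Fhl3, a LIM protein, rose by 1.58 in labelled KO and by 1.71 in WT, and Kat2b, an acetyltransferase, fell by 1.06 in labelled KO and fell by 1.39 in WT. Of 10 genes of the MEF2 and ERK5 route, which drives Klf2 and Klf4 in endothelium, 2 rose and 2 fell in labelled KO, and 2 rose and 4 fell in WT. These counts lay near the shares of all genes, 17.6% and 24.8% in labelled KO and 25.0% and 34.4% in WT. Hdac5, a class II deacetylase that holds MEF2 in check, had a called interaction of 0.72 (SE 0.090, adjusted p = 0.000825), with 84.4 ± 3.12 CPM in treated and 102 ± 7.06 CPM in untreated labelled KO cells, against 59.3 ± 1.11 CPM in treated and 119 ± 2.21 CPM in untreated WT cells (SD, n = 3 each).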

How the data were processed

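HISAT2 and HTSeq were used on mm10, per the submitters' processing notes, and versions and strand setting are not given in the sources used here. The assembly named by the file headers is GRCm38.p6. The table was deposited under the name FPKM but holds CPM, since each library sums to 1000000 and 100% of values were whole reads within 0.001 read. The exonic lengths are another column of the deposited table. Genes with CPM of at least 1 in at least 3 libraries were tested with limma-trend (limma 3.58.1, R 4.3.3) on log2(CPM + 1), 2-sided, in 1 fit of all 12 libraries with 4 group means. Fold changes on this scale understate those of low genes. Errors beside log2 changes are standard errors. Count tests (edgeR 4.0.16, DESeq2 1.42.0) on recovered reads were alternatives, and edgeR called 6030 and 8414 genes for the responses of labelled KO and WT, 3936 and 4142 between genotypes without and with PDGF-BB, and 496 for the interaction. The procedure was tested on simulated data. The members, lists and tests were chosen with earlier results of these data known. All 10 members are named, and for other lists up to 4 called genes per comparison with the largest change, plus the 3 genes nearest in pattern to each member. Dbt and the genes under the filter (such as Des) were named after their values were seen. The gene Tigar is named as the check of the labels. Depth sets the precision of the low genes: 1 read is 0.0461 to 0.0669 CPM. A gene that this rule names is not reported here.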

Additional observations from a re-analysis of the deposited data

Results flagged for a closer look

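The PDGF-BB response of Klf6 differed between the genotypes by the interaction test, at 0.51 (labelled KO response minus WT response, log2, adjusted p = 0.00485), with a log2 change of 0.04 in labelled KO and -0.48 in WT. The response of Klf11 also differed by that test, at 1.06 (adjusted p = 0.00233), with log2 changes of -1.64 in labelled KO and -2.69 in WT, and the genotype difference was -0.71 without and 0.34 with PDGF-BB. The groups of 3 libraries are too small for a test of single outlying libraries.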

How the results depend on the processing

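Of 50 member results (10 genes in 5 comparisons), 34 kept their side of the threshold in all alternatives and 16 did not in some. A change of sign where neither value was called counted as unchanged. The uncalled WT response of Klf2, for example, ran from -0.28 to 0.070 over the alternatives. Among 1085 alternative values 997 were unchanged in this sense, 55 lost a call, 33 gained one and 0 called values reversed. The count of members called between genotypes with PDGF-BB, 5 as reported, was 3 with a pseudocount of 5, with no filter and with the compared groups alone, and 8 under TMM scaling, quantile normalization, edgeR and DESeq2. The cause was not tested. Leaving out 1 library at a time gave 5 to 7 members for the response in labelled KO, 6 to 8 in WT, 5 to 9 between untreated genotypes (5 without WT replicate 2), 3 to 6 between treated genotypes (3 without labelled KO replicate 1 or 2) and 2 to 3 for the interaction. Where a group had 2 libraries left, they share the spread estimated over all groups.

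Over all genes, 5284 were called between treated genotypes and 3438 with the compared groups alone. The interaction called 557 genes, 371 with no filter, 910 by DESeq2, 228 with the replicate block and 272 to 1548 when 1 library was left out, the highest without treated WT replicate 1. Whether libraries of equal replicate number share an animal or culture is not said by the labels. Deviations of treated WT libraries followed exonic length, so the check below cannot decide whether the numbers pair the samples. Correlations of same-numbered deviations were 0.0098, -0.058 and 0.040 between the labelled KO groups and -0.23, -0.21 and 0.15 between the WT groups. They were 0.175, 0.114 and -0.026 between untreated and 0.0078, 0.0123 and -0.067 between treated genotypes, over 14202 genes, and not every sample correlated best with its own number. With the replicate number as a block the members called were 6 and 7 for the responses, 8 and 5 between genotypes and 2 for the interaction. The largest standard errors of the pairwise log2 changes were those of Klf5 (0.186, from 8 to 93 reads a library), Klf2 (0.155, from 74 to 177 reads) and Klf15 (0.155, from 34 to 415 reads), and intervals cover these libraries only.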

Other observations

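Klf15 is known to control amino acid breakdown in muscle and liver, and 15 genes of branched-chain amino acid breakdown were read beside it. With PDGF-BB 1 rose and 5 fell in labelled KO (17.6% and 24.8% of all genes) and 2 rose and 5 fell in WT (25.0% and 34.4%). The medians were -0.075 and 0.050 beside -0.067 and -0.082 over all genes. Aldh6a1, an enzyme of valine breakdown, averaged 18.6 ± 0.857 CPM in treated and 39.8 ± 5.41 CPM in untreated labelled KO cells, against 27.2 ± 1.41 CPM in treated and 66.1 ± 7.20 CPM in untreated WT cells (SD, n = 3 each). Bckdha, a subunit of the branched-chain ketoacid dehydrogenase, fell by 0.72 in labelled KO and fell by 1.10 in WT, and Ivd, of leucine breakdown, fell by 0.69 in labelled KO and fell by 0.97 in WT, while Dbt, another subunit of that dehydrogenase, rose by 0.48 and 0.73. Between genotypes 8 of 15 were lower in labelled KO without PDGF-BB and 11 with it (4 and 4 under TMM scaling, edgeR and DESeq2), with medians of -0.27 in both conditions beside -0.13 and -0.14 over all genes. The shares of all genes called lower were 24.8% without and 26.6% with PDGF-BB. Limma-trend called 0 of 15 higher, as did edgeR and DESeq2, and 0 were higher at an unadjusted p under 0.05.

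Klf9 is induced by glucocorticoids, and 9 genes of the glucocorticoid receptor and its targets were read beside it. With PDGF-BB 4 rose and 2 fell in labelled KO (17.6% and 24.8% of all genes) and 4 rose and 3 fell in WT (25.0% and 34.4%). Sgk1, a kinase, rose by 2.09 in labelled KO and by 1.97 in WT, and Fkbp5 rose by 1.34 and 1.44. Errfi1, a feedback inhibitor of the EGF receptor, averaged 47.7 ± 3.21 CPM in treated and 24.4 ± 2.23 CPM in untreated labelled KO cells, against 187 ± 9.11 CPM in treated and 35.4 ± 1.5 CPM in untreated WT cells (SD, n = 3 each), with an interaction of -1.42 (SE 0.11, adjusted p = 7.35e-05). Between genotypes 1 was higher and 6 lower in labelled KO without PDGF-BB, and 1 higher and 4 lower with it (2 higher and 2 lower under TMM scaling, edgeR and DESeq2). The shares of all genes were 9.15% higher and 24.8% lower without PDGF-BB, and 10.6% and 26.6% with it.

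Klf10 and Klf11 are both known as TGF-beta-inducible genes and moved in opposite directions with PDGF-BB. Of 11 other early genes and ligands of that pathway 5 rose and 3 fell in each genotype. The shares of all genes were 17.6% and 24.8% in labelled KO and 25.0% and 34.4% in WT. Tgfb1 rose by 0.52 in labelled KO and by 0.94 in WT, and Tgfb2 fell by 1.14 in labelled KO and fell by 1.54 in WT. Between genotypes 6 were higher and 1 lower in labelled KO without PDGF-BB (9.15% and 24.8% of all genes), and 5 were higher and 2 lower with it (10.6% and 26.6%).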
